A study of Homo sapiens with 32 samples.

Results

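The data described here are the crosslinked bases of FLAG-tagged Chtop and of a FLAG-only Control, measured by individual-nucleotide crosslinking and immunoprecipitation (iCLIP). In this assay UV light joins protein to RNA in living cells, the protein is pulled down, and each recovered cDNA, here called a tag, marks the base at which reverse transcription stopped. Members were chosen by their labels alone: the 3 Chtop and 3 Control libraries, which are 6 of the 12 libraries of the series and 16 of its 32 lane runs. The labels give the cell line as HEK293T, of human embryonic kidney origin, and the growth notes call the tagged lines FlpIn-293, which are cells with a site for the targeted insertion of a transgene. The Chtop line carried tetracycline-inducible Chtop-FLAG and was given 10 ng/mL tetracycline for 48 h, and the Control line carried the FLAG construct without a protein. Whether the Control was given tetracycline is not stated in its labels. The tagged protein was made from a transgene, and the sources used here name no change to the endogenous CHTOP gene. The sources used here do not say whether replicates came from separate cultures, so p-values measure only the spread between these libraries.

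Chtop is a small arginine- and glycine-rich RNA-binding protein of the TREX complex. TREX is loaded onto RNA during transcription and processing and hands the mature mRNA to the export receptor Nxf1, which takes it through the nuclear pore. A FLAG-only pull-down holds RNA that was recovered without a tagged RNA-binding protein and so gives the background of the procedure.

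After the mitochondrial chromosome was left out, the Chtop libraries held 46955, 537921 and 429324 tags in replicates 1, 2 and 3, and the Control libraries 6998, 46384 and 36804. The Control is therefore the shallower side of every comparison. A gene with 0 tags in all 3 Control libraries could still have had up to 3 tags over the group, which is 33.3 CPM (counts scaled to the same library total), and this floor covers counting error only. Of 8 genes that mark other cell types, CD3E, ALB, INS, MYH7 and GFAP had 0 tags in the 6 libraries, and PTPRC, HBB and COL1A1 had 3, 7 and 12 Chtop tags and 0 Control tags. Of 5 genes that HEK293 cells are known to use, VIM, TUBB and NUCKS1 had 91, 64 and 168 Chtop tags and 8, 8 and 20 Control tags, while KRT8 had 21 and 1 and KRT18, low for a keratin of these cells, had 3 and 0.

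The question of the comparison was which genes and parts of transcripts were crosslinked to Chtop above the background. Chtop libraries held a larger share of their tags in 3′ UTRs and a smaller share in introns than Control libraries. The share of tags in 3′ untranslated regions (3′ UTRs) was 16.4%, 23.5% and 28.3% in Chtop 1, 2 and 3, and 10.8%, 6.08% and 4.07% in Control 1, 2 and 3. Every Chtop library was thus above every Control library, with means of 22.7% ± 5.94 and 6.98% ± 3.45 (SD, n = 3 each). The intron share was 31.2%, 33.5% and 23.1% in Chtop and 48.3%, 62.4% and 50.4% in Control, again without overlap but in the other direction (29.3% ± 5.48 against 53.7% ± 7.58). The share in coding sequence (CDS) was 19.0%, 26.6% and 28.3% in Chtop and 20.3%, 7.38% and 3.65% in Control. Control 1, the shallowest library, lay above Chtop 1 here, so that the groups overlapped. The shares in 5′ UTRs, exons of non-coding genes and sequence outside genes also overlapped. Each of these values belongs to a family of 39 per-library measures, of which 16 did not overlap between the groups (41.0%). The two-sided exact permutation test of 3 libraries against 3 cannot go below p = 0.1, and adjusted over the family the smallest value was 0.244, so no measure passed a threshold of 0.05. Chtop and Control libraries of the same replicate number were run on the same sequencing lanes. The 3′ UTR share was higher and the intron share lower in Chtop in each of the 3 same-numbered pairs. This follows from the lack of overlap and adds no support.

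**Figure D1:**
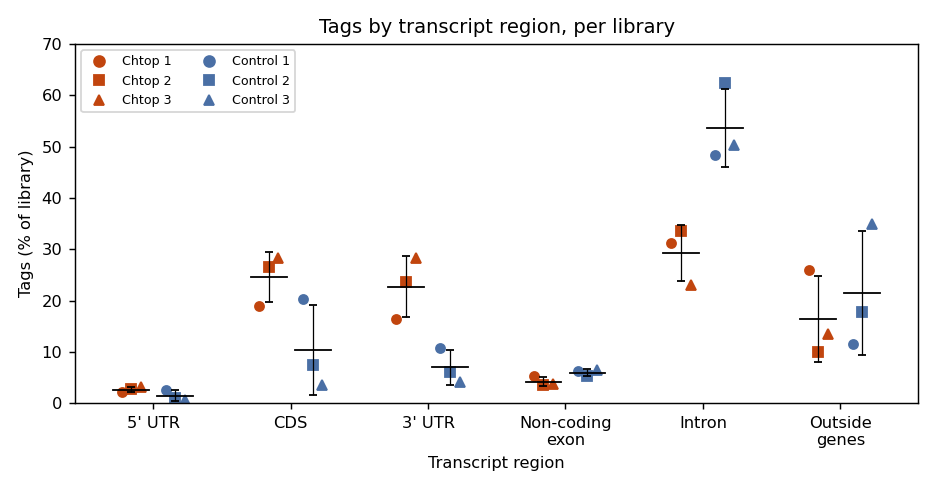
Percentage of each library's tags (vertical axis) by transcript region (horizontal axis), with symbols for single libraries and bars for the mean and SD of 3. The 3′ UTR and intron values do not overlap between Chtop and Control, whereas Control 1 reaches the Chtop range in CDS.

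The most heavily tagged single bases were in part the same in both groups, and they are shown for contrast with the exons described after them. The 5 bases with most Chtop tags and the 5 with most Control tags had 3 bases in common. Of these, the base in an intron of ANKRD30BL had 11, 17 and 17 tags in Chtop 1, 2 and 3 and 1, 10 and 11 tags in Control 1, 2 and 3. The base on chromosome 5 outside annotated genes had 11, 22 and 5 tags in Chtop and 2, 11 and 9 in Control. All 5 of the top Chtop bases had a higher mean CPM in Control than in Chtop, and at them Chtop 1 held between 170 and 256 CPM where Chtop 2 and 3 held between 11.6 and 52.1. Chtop 1 was thus closer to Control at these bases than Chtop 2 and 3 were. A pair of further Control bases, in introns of RAPGEF6 and RBFOX1, was carried by Control 3, with 24 of 25 and 21 of 21 Control tags. The sequences around them, on the tagged strand of hg19 with the crosslinked base in capitals, were these:
ANKRD30BL intron, chr2:133012617-133012637, minus strand: ccagtctttgGgtttttgggt
HFM1 intron, chr1:91853139-91853159, minus strand: aactcatcatTtccggggaca
outside genes, chr5:71146731-71146751, plus strand: tagaaatttcTtccagtgcgg
RAPGEF6 intron, chr5:130851790-130851810, minus strand: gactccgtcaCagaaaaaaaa
RBFOX1 intron, chr16:6400432-6400452, plus strand: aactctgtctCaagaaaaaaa

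In contrast, the exons that held most Chtop tags had no base with more than 9 Chtop tags, and the share of their bases that carried a Chtop tag ranged from 3.21% to 61.3% in the 8 exons with the highest mean Chtop level. The exon with the highest mean Chtop level was the last exon of ZNF711, a zinc finger transcription factor, at chrX:84525657-84528363 (hg19, plus strand, 2707 nt). It had 134, 1132 and 1386 tags in Chtop 1, 2 and 3 and 7, 14 and 4 in Control 1, 2 and 3, and 61.3% of its bases carried a Chtop tag, with at most 7 tags at a base. Exon 1 of IRS4, an adaptor of insulin receptor signalling, came next to it. SRRM2 exon 11 and IRS4 exon 2 followed, with Chtop means of 1680 and 1670 CPM. Exon 1 of IRS4 (chrX:107975809-107979793, minus strand, 3985 nt) had 103, 1195 and 1431 Chtop tags against 3, 7 and 11 Control tags, and exon 2 (chrX:107963176-107965753, 2578 nt), which is mostly 3′ UTR, had 67, 783 and 913 against 3, 7 and 4. Exon 11 of SRRM2, which encodes a serine- and arginine-rich protein of nuclear speckles, is a middle exon of 6701 nt (chr16:2811562-2818262, plus strand) and had 52, 987 and 900 against 1, 10 and 7. In pooled CPM Chtop was 9.43 times as high as Control in ZNF711 exon 11, and 11.6 and 11.2 times in IRS4 exons 1 and 2. In SRRM2 exon 11 it was 9.58 times as high, and the lowest 95% counting limit of these exons was 6.04. The base with most Chtop tags in each exon is shown with its surroundings, again with the crosslinked base in capitals, to show that these exons have no single dominant site:
ZNF711 exon 11, 3′ UTR, chrX:84527384-84527404, plus strand, 7 Chtop tags: tcagtactatTaaaaaagaat
IRS4 exon 1, CDS, chrX:107978931-107978951, minus strand, 6 Chtop tags: gctcggcgcgCagccggacgg
IRS4 exon 2, 3′ UTR, chrX:107964636-107964656, minus strand, 9 Chtop tags: taagatgtacCaaattaaaaa
SRRM2 exon 11, CDS, chr16:2814809-2814829, plus strand, 4 Chtop tags: tgaaagatggTttacccagaa
ZNF460 exon 3, 3′ UTR, chr19:57804334-57804354, plus strand, 9 Chtop tags: ttgactttttTaaaaaaattg
Control had 0 tags at each of these 5 bases. They were chosen by their Chtop tags, and the pooled Control held 90186 tags against 1014200 in Chtop. With so few tags at a base, the 0 in Control gives no support to a difference.

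**Figure D2:**
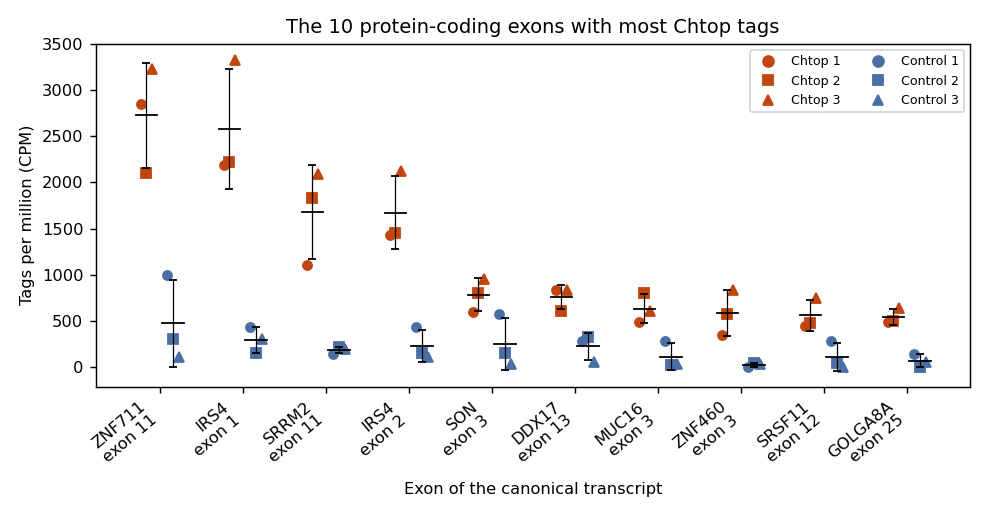
CPM in each library (vertical axis) for the 10 protein-coding exons with the highest mean Chtop level (horizontal axis, numbered in the canonical transcript), with the mean and SD of 3 libraries. All 10 were chosen by their Chtop level, and in each the 3 Chtop libraries sit above the 3 Control libraries.

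Tags were next counted per gene and tested across all genes with edgeR's quasi-likelihood test, and a gene was called at a Benjamini-Hochberg adjusted p below 0.05. The fit held all 12 libraries, so those of Alyref and Nxf1 also shaped the filter, the scaling and the estimate of spread. Of 3369 genes tested, 310 rose in Chtop (9.2%) and 201 fell (5.97%). Of the rises, 299 were protein-coding genes and 10 were long non-coding RNA (lncRNA) genes. Of the falls, 162 were protein-coding, 22 were lncRNA genes and 10 were small nuclear RNA (snRNA) genes. The median log2 fold change over all genes tested was 0.16, and fold changes are read against it. With RLE size factors that median was -0.00 and the split was 233 rises and 279 falls, and with library totals alone it was 231 and 287. Falls also outnumbered rises in DESeq2 (84 rises and 136 falls). The same held in the edgeR fit to the Chtop and Control libraries alone, with 77 rises and 105 falls among 538 genes tested. Which direction had more calls thus depended on the scaling, the method and the libraries in the fit. The counts also rested on single libraries: without Control 3 there were 75 rises and 22 falls, without Control 2 there were 184 and 53, and without Chtop 3 there were 154 and 49.

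In 15.1% of the genes tested all Chtop libraries lay above all Control libraries in CPM, and in 10.3% they lay below. The genes with the largest rises whose libraries did not overlap were mostly genes with no Control tag at all, for which a fold is given only as a lower bound from 3 tags over the pooled Control. PPP1R15B, which encodes a subunit that directs a phosphatase to the translation factor eIF2α, had 9, 182 and 209 tags in Chtop 1, 2 and 3 and 0 in each Control library, at least 11.9-fold higher (adjusted p = 0.000175). ELK4, an ETS family transcription factor, had 8, 80 and 106 tags against 0, at least 5.75-fold higher. COG8, a subunit of a Golgi tethering complex, and ZNF558, a zinc finger gene, had 7, 80 and 94 tags and 5, 75 and 103 tags, at least 5.37-fold and 5.42-fold higher. These 4 genes were above the floor in every Chtop library.

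The other genes of this group with 0 Control tags were IDS (a lysosomal sulfatase), TRO (trophinin), LZTS2 (a leucine zipper protein), TAF2 (a subunit of the TFIID transcription factor), SLX4 (a scaffold for DNA repair nucleases), CCDC93 (a protein of endosomal sorting) and TELO2 (which stabilises kinases of the ATM family). Their lower bounds lay between 2.73-fold for TELO2 and 4.27-fold for IDS. GOLGA8B, a golgin gene, had 14, 203 and 201 tags in Chtop and 1, 0 and 0 in Control, a pooled ratio of 37.2 with a 95% counting interval of 6.63 to 1472. Since GOLGA8A and GOLGA8B are near-identical copies, the placing of their reads is uncertain. All 12 were protein-coding genes.

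The largest falls without overlap were of another kind. MRPL45, a mitochondrial ribosomal protein gene, had 0, 5 and 5 tags in Chtop and 1, 12 and 4 in Control (log2 fold change -4.22 ± 0.84 SE, adjusted p = 0.00153), and all 17 of its Control tags lay in introns. EYA2, a transcriptional coactivator with phosphatase activity, had 0, 14 and 11 tags against 1, 6 and 12 (-3.22 ± 0.69), with 19 of 19 Control tags in introns. GNG7, a G protein subunit gene, had 0, 10 and 5 against 1, 6 and 7 (-3.50 ± 0.81). LINC00910, an lncRNA, had 5, 23 and 18 against 2, 11 and 20 (-3.07 ± 0.51), and all of its tags lay in introns. SHLD1, SUGCT, RIMS4, SMS, LINC03009 and KCNQ1OT1 fell by between 2.63 and 3.06 on the log2 scale. RNA5S9, a 5S ribosomal RNA gene, had 9, 18 and 25 tags against 2, 16 and 22 (-3.02 ± 0.64), and RNU4-2, which encodes the U4 snRNA of the spliceosome, had 5, 28 and 20 against 3, 18 and 11 (-2.77 ± 0.49). RNA5S9 and RNU4-2 have near-identical copies in the genome, so that their levels depend on the unique-mapping filter of the authors.

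A high Chtop level was not by itself a rise over the background. Of the 10 genes with the highest mean Chtop CPM, 6 rose: IRS4, ZNF711, SRRM2, DDX17, KMT2D and ADGRV1. The call of ADGRV1 (1.39 ± 0.44, adjusted p = 0.0317) was lost with RLE size factors (0.0555) and with library totals (0.108), and those of ZNF711 and DDX17 with library totals (0.109 and 0.0853). Without Control 3 all 3 were lost, at adjusted p = 0.12, 0.0823 and 0.145, and without Chtop 3 likewise, at 0.0955, 0.0731 and 0.0807. Without Chtop 2 ADGRV1 was lost at 0.0529. IRS4 had 3620, 3677 and 5460 CPM in Chtop and 857, 302 and 408 CPM in Control (log2 fold change 3.37 ± 0.65, adjusted p = 0.00118), so that the lowest Chtop library was several times the highest Control library. ZNF711 had 4068, 3084 and 4684 CPM against 2143, 1466 and 543 (1.86 ± 0.57). Of its 103 Control tags 62 lay in introns, whereas 426 of its 3861 Chtop tags did. PRKDC, the catalytic subunit of DNA-dependent protein kinase, did not pass the test, with 1022, 1452 and 1577 CPM against 1286, 862 and 380 (0.98 ± 0.45, adjusted p = 0.122). The nuclear lncRNAs MALAT1 and NEAT1 did not pass it either. MALAT1 had 1640, 1220 and 1037 CPM in Chtop and 1143, 2350 and 1657 in Control (-0.42 ± 0.47, adjusted p = 0.557). NEAT1 had 895, 1926 and 920 against 2715, 1401 and 1331 (-0.30 ± 0.45, adjusted p = 0.669). Both groups overlap in these genes. ANKRD30BL, whose tags lay almost all in introns, had 4536, 1082 and 857 CPM against 3572, 5368 and 6738 (-1.21 ± 0.65, adjusted p = 0.189), with Chtop 1 in the Control range. Without Chtop 1 the gene fell (-2.43, adjusted p = 0.00282).

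The gene of the tagged protein and its partners were looked at for themselves. CHTOP had 6, 135 and 125 tags in Chtop and 0, 1 and 2 in Control, a pooled ratio of 7.88 with a counting interval of 2.67 to 38.5, and it rose in the fit (2.82 ± 0.71, adjusted p = 0.00889). CHTOP did not pass in DESeq2 (2.60, adjusted p = 0.0634) or without Control 2 (2.52, adjusted p = 0.0761). Of its 266 Chtop tags 107 lay in introns, 91 in the 3′ UTR, 49 in CDS and 19 in the 5′ UTR. Tags in CDS from the transgene and from the endogenous gene cannot be told apart. DDX39B, the RNA helicase of TREX, had 937, 1021 and 871 CPM against 1143, 625 and 81.5 (1.11 ± 0.49, adjusted p = 0.113). NXF1 had 2, 51 and 23 tags against 2, 2 and 0 (0.60 ± 0.80, adjusted p = 0.63). ALYREF, with 0, 4 and 13 Chtop tags and 0 Control tags, was too low to be tested.

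Each gene was then split into its regions. Of 2364 gene regions tested, 474 rose (20.1%) and 519 fell (22.0%). Of 528 CDS regions, 279 rose and 0 fell, and the median log2 fold change was 2.13. No CDS region had an unadjusted p below 0.05 in the falling direction in edgeR, and DESeq2 called 371 rises and 0 falls. Of 270 3′ UTRs, 175 rose and 0 fell, with a median of 2.71, and at an unadjusted p below 0.05 there was 1 fall. DESeq2 called 212 rises and 0 falls among them. Of 1499 intron regions, 8 rose and 488 fell, with a median of -1.31. With the CDS and 3′ UTR regions that had no Control tag set at their lower bound, the medians were 2.03 and 2.34. Of 62 exonic regions of non-coding genes, 9 rose and 31 fell, and of only 5 tested 5′ UTRs, 3 rose, those of C21orf58, BRD2 and SLIT2.

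The number of introns that fell differed widely between settings. With RLE size factors 648 fell and with library totals 649. DESeq2, with another scaling and another model, gave 22 rises and 21 falls among introns and 618 rises and 22 falls over all regions. In its fit the medians of CDS, 3′ UTR and introns were 3.03, 3.68 and -0.34, in the same order as before. Only 11 of the 528 CDS regions reached the filter's level in all 3 Control libraries, and 239 did so in all 3 Chtop libraries. Of the 1499 introns, 573 and 95 did. Many regions were thus tested because of the side on which they are high. For 289 CDS regions, 136 3′ UTRs and 890 introns, neither group reached that level in all 3 libraries. Those regions passed through Alyref or Nxf1 libraries or a mix of groups. The counts and medians of the tested regions therefore give no support to either direction. With no filter, 183 of 13119 CDS regions rose and 0 fell, 197 of 12080 3′ UTRs rose and 5 fell, and 4 of 23368 introns rose and 37 fell. The regional shares given before the gene tests used every tag and no filter. The rises in CDS and in 3′ UTRs and the falls in introns numbered 73, 70 and 89 without Control 2, 107, 135 and 117 without Control 3, 163, 94 and 102 without Chtop 3, 429, 375 and 623 without Control 1 and 363, 342 and 510 without Chtop 1. The number tested differed between these fits, from 421 to 1013 CDS regions, 211 to 739 3′ UTRs and 1493 to 2755 introns.

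**Figure D3:**
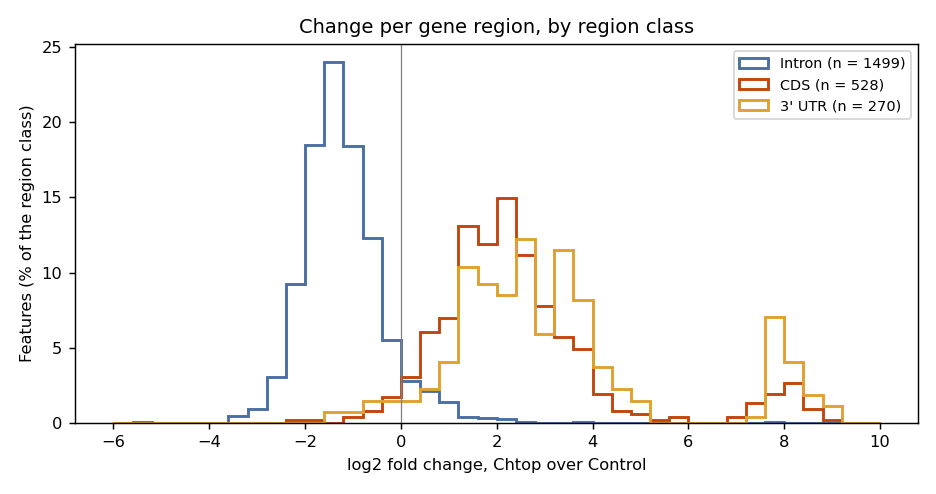
Distribution of the log2 fold change of Chtop over Control (horizontal axis) for introns, CDS and 3′ UTRs of single genes, as a percentage of the regions of each class (vertical axis). Introns center below 0, CDS and 3′ UTRs above it, and the separate group above 7 holds regions with no Control tag, whose fitted values depend on the prior count.

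The CDS regions with the smallest p were those of MGA, RBM15, FAT3 and HECTD4. MGA, a transcription factor that pairs with MAX, had 8, 188 and 124 CDS tags in Chtop and 0 in each Control library, at least 9.49-fold higher. RBM15, an adaptor of the m6A methyltransferase, had 10, 234 and 234 CDS tags against 0, 1 and 1, a pooled ratio of 21.3 with a counting interval of 5.85 to 176. FAT3, a giant cadherin, had 14, 181 and 154 against 0, 1 and 0, a ratio of 31.0 with an interval of 5.53 to 1229. HECTD4, a large ubiquitin ligase, had 22, 342 and 271 against 1, 2 and 0, a ratio of 18.8 with an interval of 6.41 to 91.5. Among 3′ UTRs the smallest p belonged to ANKFY1 (endosomal trafficking), GOLGA8A, SLC25A37 (mitoferrin, an iron carrier of mitochondria) and STX16 (a SNARE of the Golgi). The ANKFY1 3′ UTR had 11, 131 and 127 tags against 0, at least 7.97-fold higher. The SLC25A37 3′ UTR had 22, 198 and 189 against 0, 1 and 0, a pooled ratio of 36.4 with a counting interval of 6.49 to 1440. None of these CDS and 3′ UTR regions overlapped between the groups.

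Both directions could be seen within single genes, of which a few are given here that were chosen after their values were seen. XPO1, which encodes the export receptor CRM1, had a CDS and a 3′ UTR that rose and introns that fell. It had 7, 91 and 75 CDS tags in Chtop and 0 in Control, 2, 72 and 56 3′ UTR tags against 0, 0 and 1, and 2, 44 and 12 intron tags against 0, 12 and 8. SRSF11, a splicing regulator, had 19, 243 and 313 3′ UTR tags against 2, 2 and 0 and 3, 84 and 48 intron tags against 2, 22 and 13. LRP1B, a giant lipoprotein receptor with very long introns, had 2, 62 and 45 CDS tags against 0 and 4, 193 and 47 intron tags against 5, 24 and 19. These genes were taken from those called both for a rise in CDS or 3′ UTR and for a fall in introns. That their exon and intron counts moved apart follows from this choice and gives no support to either direction.

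The introns that fell most clearly were those of TENM1, MRPL45, RBM27 and LINC00910. TENM1, a teneurin of the nervous system, had 3, 14 and 19 intron tags in Chtop and 3, 17 and 13 in Control (log2 fold change -3.33 ± 0.58), although the Chtop libraries were many times deeper. RBM27, an RNA-binding protein of nuclear RNA decay, had 1, 23 and 7 against 1, 8 and 14 (-3.21 ± 0.66). The 8 introns that rose were those of TP73-AS1, SLC25A29, HOXD3, SEPTIN8, RBM15, LMF1, KIAA1958 and KANTR. SLC25A29, a mitochondrial carrier, had 8, 49 and 43 intron tags against 0, at least 2.96-fold higher, and HOXD3, a homeobox gene, had 6, 82 and 81 against 0, 2 and 1, a pooled ratio of 5.01 with a counting interval of 1.69 to 24.5. Introns here are those of 1 canonical transcript per gene, so exons of other isoforms can lie in them.

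Intron tags also lay differently along and among introns. Introns over 10 kb held 47.2%, 50.5% and 39.7% of the intronic tags of protein-coding genes in Chtop and 57.6%, 54.6% and 62.3% in Control. First introns held 23.4%, 24.8% and 21.4% against 27.2%, 25.2% and 27.5%. In introns of 1 kb or more, the density in the first 100 nt over that of the whole intron was 1.38, 1.08 and 1.51 on the log2 scale in Chtop and 0.55, 1.01 and 0.51 in Control. These 3 measures did not overlap between the groups (exact permutation p = 0.1 each, adjusted p = 0.244). The last 100 nt, before the 3′ splice site, gave 1.77, 1.66 and 2.56 against 1.21, 1.92 and 0.64, which overlap.

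The length of the exon moved with the Chtop signal. In middle exons of protein-coding genes with at least 3 exons, the tag density relative to that of all middle exons was taken on the log2 scale by exon length. In middle exons under 100 nt it was -0.27, -0.62 and -0.66 in Chtop and 0.32, 0.36 and 0.14 in Control, a difference of -0.79 between the means. The differences were -0.24 from 100 to under 200 nt, 0.36 from 200 to under 500 nt, 0.83 from 500 to under 1000 nt and 1.03 for 1000 nt or more. In this last class Chtop had 0.45, 0.73 and 0.78 and Control -0.87, -0.48 and 0.22. In each of the 5 length classes the groups did not overlap (exact permutation p = 0.1, adjusted p = 0.244). In Control 1 and 2 the density was lower in the longest than in the shortest class, but in Control 3 it was higher, at 0.22 against 0.14. The longest class had 1229 exons, and it rested on 68, 204 and 120 tags in Control 1, 2 and 3.

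**Figure D4:**
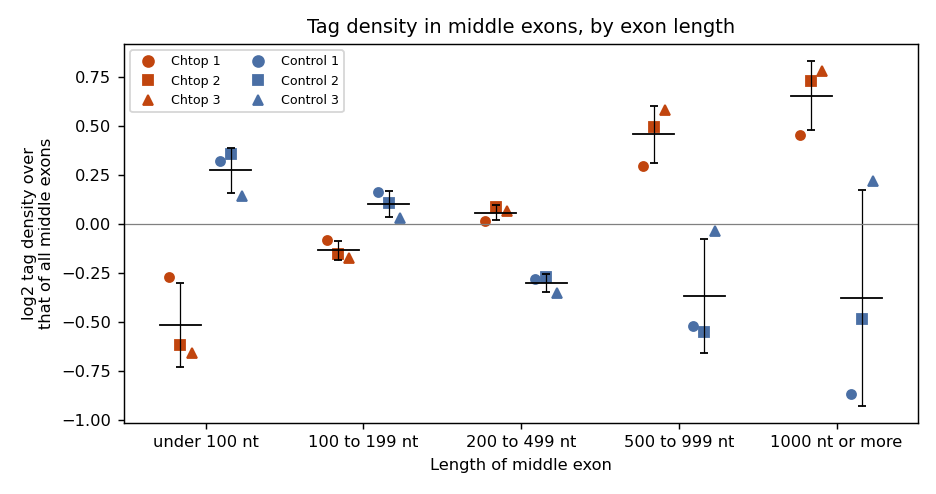
Tag density in middle exons over that of all middle exons (log2, vertical axis) by exon length (horizontal axis), with symbols for libraries and bars for the mean and SD of 3. The Chtop libraries climb from below 0 in exons under 100 nt to between 0.45 and 0.78 in exons of 1000 nt or more, where the Control libraries lie between -0.87 and 0.22.

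Long middle exons with many Chtop tags were found in genes of diverse function. Exon 3 of SON, a splicing factor of nuclear speckles, is 5916 nt long (chr21:34921782-34927697, plus strand) and had 28, 430 and 411 tags in Chtop and 4, 7 and 1 in Control. Exon 3 of MUC16, a membrane mucin, is 21693 nt long (chr19:9056173-9077865, minus strand) and had 23, 432 and 259 against 2, 1 and 1, a pooled ratio of 15.9 with a counting interval of 6.17 to 58.4. Exon 8 of ALMS1, a centrosomal protein gene, is 6105 nt long (chr2:73675090-73681194, plus strand) and had 10, 179 and 151 against 0, 1 and 0, a pooled ratio of 30.2 with an interval of 5.39 to 1198. These exons were listed because of their Chtop level.

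The called genes also differed in transcript structure, given here as a description. Of 3210 protein-coding genes tested, 9.31% rose and 5.05% fell. Among those whose longest exon was under 500 nt, 5 of 215 rose and 21 fell, whereas among those with an exon of 4000 nt or more, 106 of 863 rose and 34 fell, that is 2.33% and 12.3% rising. Of 14 genes made of a single exon, 8 rose and 0 fell at an adjusted p below 0.05, with a median log2 fold change of 2.29. They were PURA and PURB (single-strand nucleic acid binding proteins), SOX4 (a transcription factor), EXOSC6 (a subunit of the RNA exosome), RANBP6 (an importin family member), KLHL9 (an adaptor of a ubiquitin ligase), EPM2AIP1 and ATXN7L3B. The share that rose was 26.2% in genes with 2 to 4 exons (43 of 164), 10.2% with 5 to 9 (59 of 578), 6.38% with 10 to 19 (82 of 1286) and 9.16% with 20 or more (107 of 1168). The median share of Chtop tags in introns was 13.2% in the protein-coding genes that rose and 77.0% in those that fell. The genes that fell were also the longer ones, with a median span of 315 kb against 39.0 kb in those that rose. These medians describe the called genes only. Of the 3369 genes tested, 1194 reached the filter's level in all 3 Chtop libraries, 909 in all 3 Control libraries and 474 in both. Many genes were thus tested because of the side on which they are high, as with the gene regions. The counts by transcript structure and by gene list therefore give no support to either direction.

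First exons held less of the Chtop signal. Of exonic tags in protein-coding genes with at least 3 exons, first exons held 7.01%, 6.47% and 6.51% in Chtop and 8.68%, 9.26% and 9.31% in Control (6.66% ± 0.30 against 9.08% ± 0.35, SD, n = 3 each, exact permutation p = 0.1). The last exon share was 49.4%, 50.7% and 53.9% against 35.5%, 45.2% and 53.4%, with overlap. When mRNAs were divided into 24 bins from the 5′ to the 3′ end, and each bin's density was taken relative to the whole mRNA, all 4 bins of the 5′ UTR lay lower in Chtop without overlap (16.7% of the bins), with differences between -0.32 and -0.60 on the log2 scale. Another 2 bins (8.33%) lay higher without overlap. As a share of all tags, the 5′ UTR was at 2.12%, 2.76% and 3.09% in Chtop and 2.63%, 1.08% and 0.59% in Control, which overlap. In 3′ UTRs of 1000 nt or more, the log2 ratio of tags in the last 500 nt to the first 500 nt was -0.45, -0.61 and -0.56 in Chtop and -0.63, -0.65 and -0.90 in Control. Within last exons, the density of the 3′ UTR over that of the CDS overlapped between the groups, at 0.10, 0.01 and 0.07 against 0.07, 0.40 and 0.44.

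The gene lists were read by their counts beside the 9.2% of all genes tested that rose and the 5.97% that fell. At an unadjusted p below 0.05 in edgeR, 646 of all 3369 genes tested rose and 457 fell. Zinc finger (ZNF) genes, a large family of DNA-binding proteins whose fingers usually sit in 1 long last exon, had 18 rises and 0 falls among 72 members tested of 508 annotated, with a median log2 fold change of 0.80. ZNF460 had 17, 342 and 394 tags in Chtop against 0, 3 and 1 (3.89 ± 0.62, adjusted p = 0.000175). ZNF224 had 26, 205 and 181 against 0, 7 and 1 (2.28 ± 0.53). Of all 72, 3 had an unadjusted p below 0.05 in the falling direction in edgeR.

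Among histone lysine methylases and demethylases, 5 of 31 members tested rose and 0 fell, also at an unadjusted p below 0.05, and the median was 0.64. KMT2D, which methylates histone H3 at enhancers, had 48, 855 and 567 tags against 4, 9 and 4 (2.75 ± 0.53, adjusted p = 0.00113). KMT2A had 29, 549 and 324 against 1, 6 and 8 (2.24 ± 0.47) and NSD3 had 14, 291 and 261 against 0, 6 and 1 (2.71 ± 0.53). In these 3 genes the groups did not overlap. Of 30 chromatin remodellers 2 rose (6.67%), BRD2 (a bromodomain reader of acetylated histones, 2.05 ± 0.46) and CHD9 (1.68 ± 0.47), and 0 fell. At an unadjusted p below 0.05 in edgeR, 6 of the chromatin remodellers rose and 2 fell.

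Of 9 genes of the m6A machinery 3 rose and 0 fell, with a median of 1.50. RBM15 had 15, 332 and 350 tags in Chtop against 1, 3 and 1 (3.43 ± 0.54, adjusted p = 0.000175), and the m6A readers YTHDC2 (2.24 ± 0.57) and YTHDF3 rose too. YTHDF3 had 6, 90 and 76 tags against 0, 1 and 2, a pooled ratio of 5.10 with a counting interval of 1.72 to 25.0. Of 8 TREX and export genes 3 rose, which were CHTOP itself, MCM3AP (GANP, a scaffold of the export machinery, 1.91 ± 0.47) and NCBP3 (a cap-binding protein, 2.27 ± 0.57), and 0 fell, with a median of 0.89. At an unadjusted p below 0.05 in edgeR, 4 of the TREX and export genes rose and 1 fell. Of 18 DEAD and DEAH box helicases, DDX5, DDX17 and DHX15 rose by 1.82, 1.55 and 1.47 and DHX37, a ribosome biogenesis helicase, fell by 2.00. Of 12 SR proteins, the splicing regulators SRSF2 and SRSF6 rose by 1.93 and 1.85 and 0 fell. Of 11 genes of the exon junction complex and nonsense-mediated decay 1 rose, the kinase SMG1, with 28, 612 and 566 tags against 3, 9 and 1 (2.82 ± 0.53, adjusted p = 0.00105). SMG1 has many partial copies on chromosome 16, so that the placing of its reads is uncertain.

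**Figure D5:**
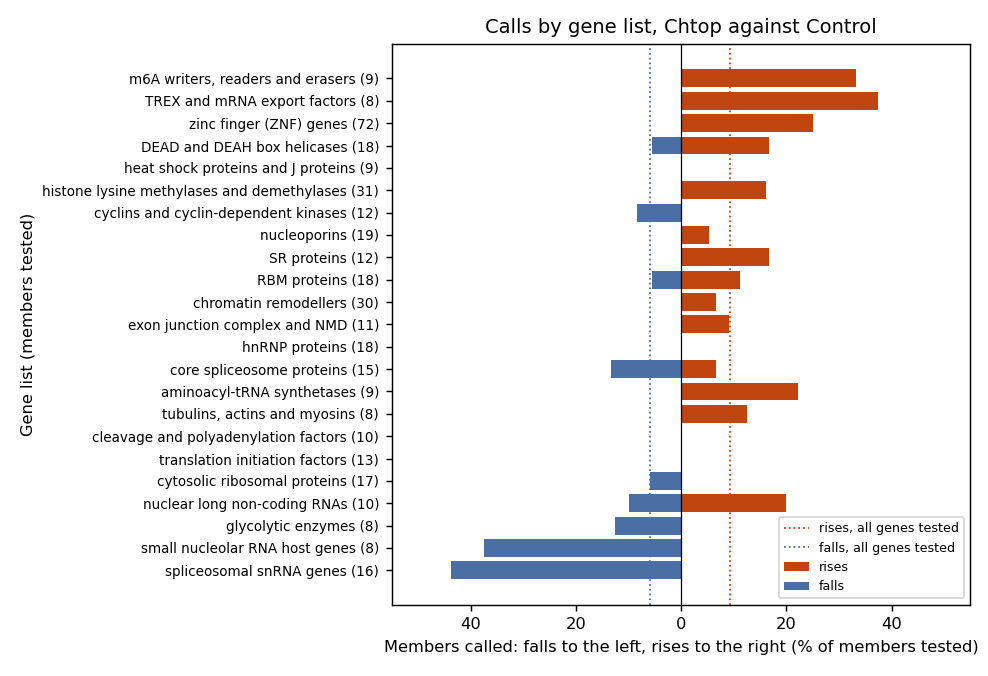
Percentage of tested members that rose (to the right) or fell (to the left) for the gene lists with at least 8 members tested (vertical axis), with dotted lines for all genes tested. Lists are ordered by median log2 fold change, from m6A genes, 33.3% of which rose, to spliceosomal snRNA genes, 43.8% of which fell.

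Of 18 RBM proteins, RBM15 and RBM25 (1.58 ± 0.51) rose and RBM27 fell by 1.76. Of 15 core spliceosome proteins PRPF38B rose, with 1, 90 and 89 tags against 0, 3 and 0 and a pooled ratio of 5.34 (counting interval 1.80 to 26.1), while PRPF6 and SNRPB fell by 1.99 and 2.16. NUP153, a nucleoporin of the nuclear basket, was the 1 rise among 19 nucleoporins (1.37 ± 0.44). Of 18 hnRNP proteins, 10 cleavage and polyadenylation factors and 13 translation initiation factors, 0 were called in edgeR. At an unadjusted p below 0.05 these lists had 2, 1 and 1 rises and 1, 0 and 0 falls. The medians of the last 2 lists, 0.10 and 0.07, were below 0 with RLE size factors, library totals and DESeq2. AARS1 and LARS1, which charge tRNA with alanine and leucine, rose by 1.69 and 1.36 among 9 aminoacyl-tRNA synthetases, with adjusted p = 0.045 and 0.0489. The calls of AARS1, LARS1, NUP153, PRPF38B, RBM25 and DHX15 were each lost with RLE size factors, with library totals and in DESeq2. TUBGCP6, a gamma-tubulin ring protein, rose by 2.08 among 8 tubulins, actins and myosins. Of 3 tested genes on the immediate-early list SOX4 (1.94 ± 0.61) and CEBPG rose, both transcription factor genes. CEBPG had 8, 57 and 56 tags against 0, 0 and 1, a pooled ratio of 10.8 with a counting interval of 1.89 to 429.

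Of 17 cytosolic ribosomal protein genes tested of 84 annotated, 0 rose, also at an unadjusted p below 0.05, and RPL23 fell, with 1, 20 and 9 tags in Chtop against 2, 7 and 3 (-2.28 ± 0.70, adjusted p = 0.0262). The median of the list was -0.37. Of 8 glycolytic genes PFKP, a phosphofructokinase, fell by 1.25, and of 12 cyclins and their kinases CDK14 fell by 1.73. Of 3 mitochondrial ribosomal protein genes, MRPL45 was the 1 that fell. Respiratory chain, proteasome and heat shock protein genes had 0 calls among 5, 4 and 9 members in edgeR. At an unadjusted p below 0.05 they had 1, 1 and 1 rises and 0, 1 and 1 falls. Of the 63 replication-dependent histone genes, which lack introns and poly(A) tails, 0 were tested because of their low counts.

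Of 16 spliceosomal snRNA genes tested, 7 fell and 0 rose, also at an unadjusted p below 0.05, with a median of -2.26. The list takes in pseudogene copies, whose symbols end in P, such as RNU2-59P, RNU2-64P, RNU2-61P and RNU2-70P. RNU2-59P had 53, 108 and 109 tags in Chtop and 22, 81 and 79 in Control, and every Control library lay above every Chtop library in CPM (-2.08 ± 0.62). In RNU2-64P, RNU2-61P, RNU2-70P, RNU4-1 and RNVU1-17, which also fell, the libraries overlapped. The share of all tags in snRNA genes was 1.26%, 0.194% and 0.243% in Chtop and 1.13%, 1.21% and 2.11% in Control, which overlap. RMRP, the RNA of RNase MRP, had 3, 43 and 13 against 1, 16 and 5 (-2.13 ± 0.53, adjusted p = 0.00754), and RNY1, a Y RNA, fell by 2.00. SNORD13, a small nucleolar RNA (snoRNA), had 2, 39 and 3 against 2, 11 and 6 (-2.41 ± 0.66). Among 8 host genes of snoRNAs 3 fell, SNHG1, GAS5 and SNHG4, by 2.08, 1.96 and 2.31, and 0 rose. The share of all tags in snoRNA genes was 0.141%, 0.26% and 0.0284% in Chtop and 0.457%, 0.791% and 0.443% in Control, without overlap. The difference between the means of this snoRNA gene share was -0.421 percentage points, and -0.0534 when only bases in 1 gene at most were counted. Most of these RNAs have copies or lie inside other genes, and tags in more than 1 gene were left out of the gene test.

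Among 10 tested lncRNAs of a list named for nuclear lncRNAs, TUG1 and NORAD rose and KCNQ1OT1 fell. TUG1 had 11, 489 and 338 tags against 1, 2 and 4 (3.07 ± 0.58, adjusted p = 0.00105). NORAD, which is on that list but is known as a mainly cytoplasmic RNA that binds Pumilio proteins, had 4, 68 and 89 tags against 0, 0 and 1, a pooled ratio of 14.3 with a counting interval of 2.53 to 569. KCNQ1OT1, an antisense RNA inside the KCNQ1 gene that acts in imprinting, had 0, 21 and 3 against 1, 8 and 3.

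The sequence around tags in CDS and 3′ UTRs differed slightly between the groups. Of the 256 tetramers counted within 15 nt of these tags, 37 were more frequent in every Chtop library than in every Control library (14.5%) and 23 were less frequent (8.98%). AAAA made up 0.984%, 0.93% and 1.05% of tetramers in Chtop and 0.74%, 0.862% and 0.821% in Control, and AAUA, UACA and AUAU followed it. UUUU was the most depleted, at 2.54%, 2.35% and 2.61% against 2.69%, 3.15% and 4.04%. CGCG, GACG and CGGA were also lower in every Chtop library than in every Control library. GGCG and GCGG had log2 differences of -0.36 and -0.35, but their libraries overlapped. Not all tetramers with CG were lower, as CUCG and CGCU had differences of 0.04 and 0.03, with overlap. The difference for UUUU was -0.38 on the log2 scale. Uracil was the crosslinked base of 47.0%, 56.4% and 54.6% of tags in Chtop and 45.0%, 54.7% and 52.1% in Control, which overlap. In Control 1 uracil was most frequent 2 nt upstream of that base, at 62.1%. In the Chtop libraries and Control 2 it was most frequent at the base itself, and in Control 3 at 1 nt downstream (52.6%). The cause of the shift in Control 1 was not tested. GC content within 20 nt of the tag was 44.8%, 43.9% and 43.9% against 43.0%, 41.4% and 41.3%, without overlap, whereas in tags of CDS and 3′ UTRs alone it overlapped.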

How the data were processed

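The deposited values were counts. Per the labels and the study's methods, the authors removed phiX reads with Bowtie 1.1.2, handled random barcodes with UMI-tools 0.5.3, aligned with STAR 2.4.2a to hg19, kept unique alignments, merged lanes, collapsed duplicates and deposited the count of tags per crosslinked base and strand. Unused columns of per-sample values numbered 0. Tags were assigned to GENCODE 44 genes mapped to GRCh37, with regions from 1 canonical transcript per gene and, where none was marked, the longest. Bases in more than 1 gene were left out of gene counts. All 12 libraries entered 1 edgeR 4.0.16 fit (quasi-likelihood, TMM, filterByExpr, Benjamini-Hochberg adjustment), with DESeq2 1.42.0 as an alternative. SE is the log2 fold change over the root of F. CPM is tags over all tags of a library without the mitochondrial chromosome. Ratio intervals are exact binomial at 95%. Per-library measures had two-sided exact permutation tests. Members, lists and the filter on mean CPM were chosen with earlier results of these data known. Genes were named by size of change without overlap, Chtop level, smallest p within region class and list, and as TREX factors; exons, single-exon genes, and genes moving in both directions were chosen after their values were seen.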

Additional observations from a re-analysis of the deposited data

How the results depend on the processing

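The counts of calls were lower in every fit to the 6 libraries alone: 77 gene rises, 105 gene falls, 55 CDS rises, 30 3′ UTR rises and 114 intron falls. Fewer features passed the filter there, namely 538 genes, 75 CDS regions, 34 3′ UTRs and 150 introns. As shares of the features tested, these calls were higher than in the main fit. DESeq2 gave 84 gene rises, 136 gene falls and 21 intron falls. With no filter on low counts there were 45 gene falls, 183 CDS rises and 37 intron falls, and a filter on mean CPM, chosen after seeing the data, gave 307 3′ UTR rises. The cause was not tested. Leaving out 1 library at a time changed the number of features tested, which was 2980 to 5115 for genes. It gave 75 to 429 gene rises, 22 to 217 gene falls, 73 to 429 CDS rises, 70 to 375 3′ UTR rises and 89 to 623 intron falls. The same changed the sign of 6 differences between Chtop and Control, all with overlapping libraries: the share outside genes (-9.91 to 1.71 percentage points), the antisense share (-3.74 to 1.54), the middle exon share (-8.67 to 0.605), the 3′ UTR against CDS density for 3′ UTRs of 2000 nt or more (-0.31 to 0.353 on the log2 scale), uracil at the crosslinked base (-0.736 to 4.89 percentage points) and guanine at the crosslinked base (-1.34 to 0.735). The log2 fold change of MALAT1 ran from -0.63 without Control 1 to 0.0272 without Control 2, and that of NEAT1 was 0.26 with no filter.

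Same-numbered libraries did not deviate together (correlations -0.02, 0.02 and -0.07), so the numbers were not taken as pairs, and the fit with a replicate block gave 314 gene rises and 250 gene falls. Under it ANKRD30BL was a fall (-1.68, adjusted p = 0.0436) and AARS1 was not called (adjusted p = 0.0527), nor were the introns of KIAA1958 and KANTR and the exons of GABPB1-AS1. With bases in 1 gene at most, the differences in the miscRNA gene share and the non-coding exon share went from -0.547 to -0.221 and from -1.76 to -0.709 percentage points. DESeq2 did not call CHTOP, SOX4, SRSF2, SRSF6, NCBP3, YTHDF3, CEBPG, CHD9, NORAD, GOLGA8B, CCDC93, IDS, SLX4, TAF2, TELO2, TRO, GAS5, SNHG4, RNA5S9 and RNU2-61P, with the direction kept. The depth of the Control, at most 46384 tags, limits what could be detected for low genes.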

Other observations

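Few crosslinked bases recurred between libraries. Chtop tags lay on 967866 bases, of which 1955 were tagged in all 3 Chtop libraries, and Control tags lay on 85587 bases, of which 219 were tagged in all 3 Control libraries. Tags outside annotated genes made up 25.9%, 10.0% and 13.4% of Chtop 1, 2 and 3 and 11.6%, 17.9% and 34.9% of Control 1, 2 and 3. Tags antisense to a gene made up 10.8%, 3.98% and 5.5% against 3.87%, 6.55% and 14.4%. Chtop 1 and Control 3 were the highest libraries of their groups in both, and the groups overlapped.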
